A study of Mus musculus with 8 samples.

Results

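The infarcted left ventricle was compared between 3 days and 1 day after ligation of the left anterior descending coronary artery. The comparison is between the MI libraries, 2 mice at each day, which are 4 of the 8 libraries of the series. They were chosen by their labelled surgery and day, and their count columns were joined by gene symbol. All mice were male C57BL/6, 8 to 12 weeks old, with no transgene named in the labels. RNA came from the left ventricular free wall, frozen and ground whole, so each library mixes heart muscle with blood vessels, fibroblasts and infiltrating blood cells. The other 4 libraries came from sham-operated mice, 2 at each day, whose artery was not tied. They entered the same fit, and so shared in its gene filter, library scaling and estimate of spread. Within a group, libraries carry the letters A and B by column order, which link no animals between groups. Each day has a count table of its own, so the day after surgery and the table cannot be told apart. In bulk tissue, fewer cells of a type and less RNA per cell cannot be told apart either.

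In a mouse heart, permanent occlusion of a coronary artery kills the muscle downstream within hours, and the dead tissue is cleared and replaced by scar. Neutrophils enter first, drawn by CXC chemokines and interleukins released near the dying cells. Monocytes follow, become macrophages that engulf debris, and are joined by fibroblasts that divide and lay down collagen. Adult ventricular cardiomyocytes burn mainly fatty acids and rarely divide. The interval between the first and the third day covers the passage from the acute inflammatory phase to the start of the proliferative phase of healing.

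The 1-day MI libraries held 12662237 and 7382490 counts on genes, the 3-day MI libraries 21055785 and 25041386, and the sham libraries between 18831791 and 20676514. A floor of 3 counts therefore equals 0.243 and 0.369 CPM (a gene's counts scaled to a common library size) in the 1-day MI libraries and 0.123 and 0.102 CPM at 3 days. The smaller 1-day library, B, had at least 1 read on 92.3% of 1506 olfactory, vomeronasal and taste receptor genes, which the ventricle is not known to use. That share was 23.6% in the 1-day library A, 6.11% and 5.25% in the 3-day MI libraries, and 4.45% to 50.6% in the sham libraries. The part of these stray reads in values near 1 CPM was not tested. Spearman's correlation over genes was 0.954 within the 1-day MI pair and 0.992 within the 3-day MI pair. The defining cardiomyocyte genes were present in all MI libraries, with Myh6 at 16222 and 8302 CPM at 1 day and 631 and 695 CPM at 3 days.

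Of 15508 genes tested, 7042 changed between 1 and 3 days in MI ventricle (45.4%; edgeR quasi-likelihood test on counts, Benjamini-Hochberg adjusted p under 0.05, 2-sided). Of these, 3631 rose (23.4%) and 3411 fell (22.0%), and 5208 also changed at least 2-fold. Both libraries of 1 day lay beyond both of the other in 70.6% of the genes. In sham ventricle the same contrast called 0 genes by edgeR and 0 by limma-voom, 44 by DESeq2, and 1211 passed an unadjusted p of 0.05 in edgeR. The median absolute log2 fold change was 0.79 in MI and 0.27 in sham ventricle. The balance of rises and falls moved with the scaling of the libraries. Rises made up 51.6% of the calls with TMM factors, 45.6% with DESeq2 size factors and 60.8% with library size alone, as the median of all genes moved from -0.03 to -0.13 and 0.15. Without the 3-day library A there were 4517 calls, and without the 3-day library B 4037. Without the 1-day library A, 5821 genes fell and rises made up 38.3% of the calls.

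**Figure D1:**
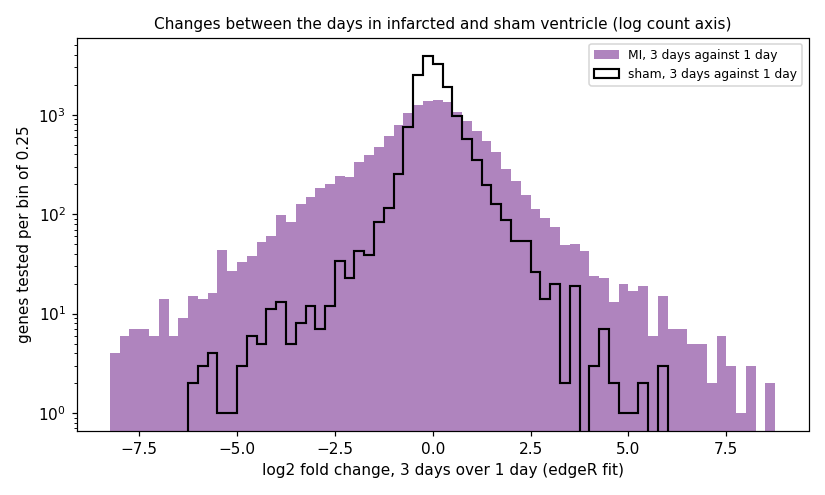
Distribution of the log2 fold change from 1 to 3 days over the 15508 tested genes, in MI ventricle (filled) and in sham ventricle (line), with genes per bin on a log axis. The MI distribution is wider on both sides of 0, with a median absolute change of 0.79 against 0.27 in sham.

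The changes were sorted by 31 gene lists of pathways and cell types, read against the background of 23.4% of tested genes rising and 22.0% falling. Cell division, matrix and phagocytic macrophage lists lay at the top, and the contractile, ion channel and fuel lists at the bottom. In the lists of S phase, mitosis and histones every tested member rose, and in the sarcomere list every tested member fell. Besides the genes picked by the naming rule, members are given as examples that were chosen after their values were seen.

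**Figure D2:**
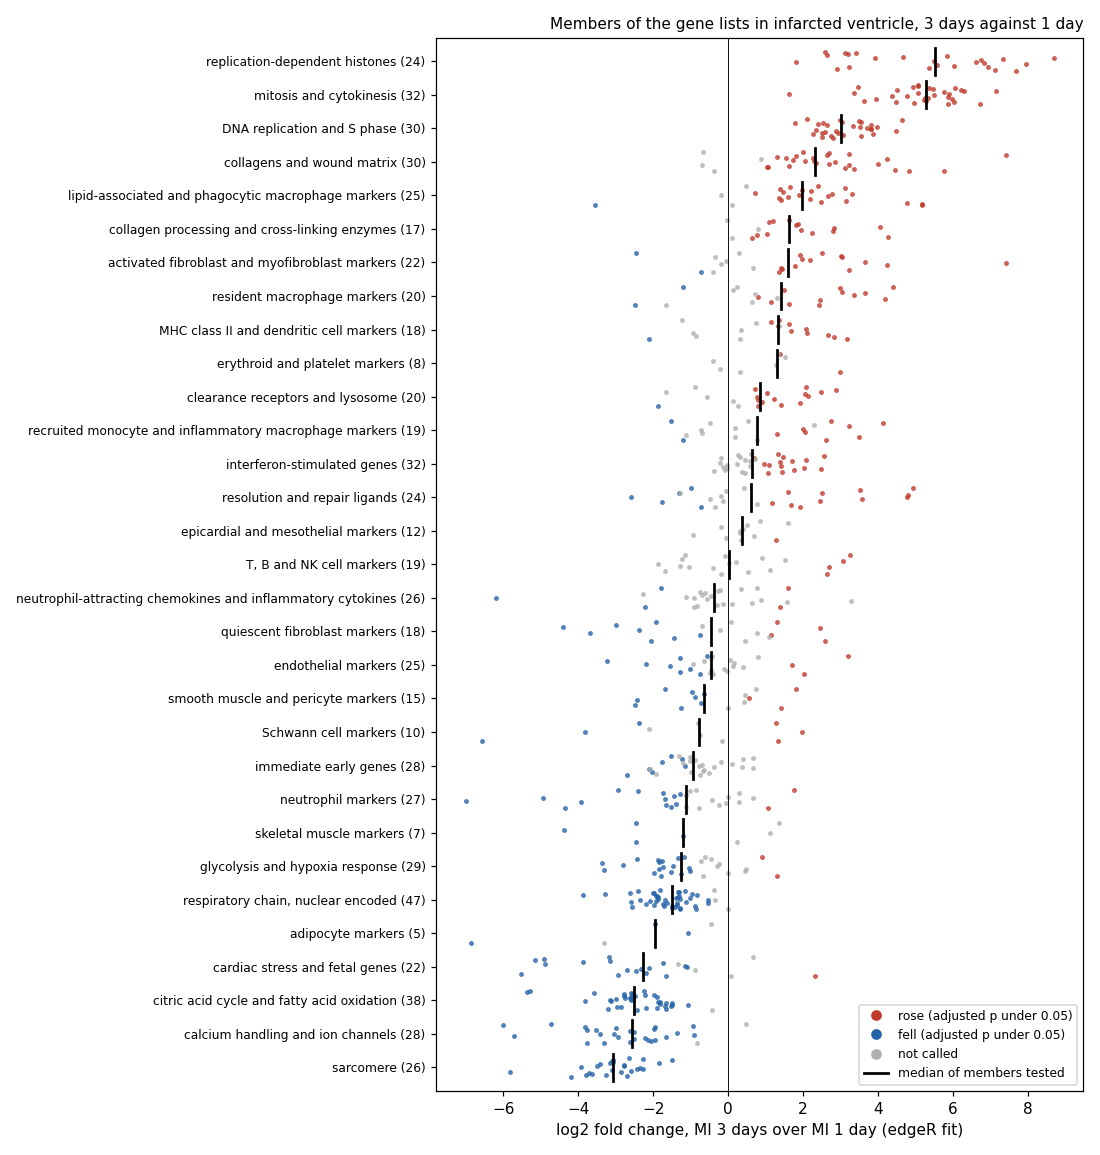
The log2 fold change from 1 to 3 days in MI ventricle of every tested member of the 31 gene lists (1 point a gene, number tested in brackets, black bar the median). Medians run from 5.53 for replication-dependent histones to -3.06 for sarcomere genes.

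Neutrophil genes fell in part between the days. Of 27 tested markers 13 fell, 2 rose and 12 were not called, with a median log2 fold change of -1.13 against -0.03 over all genes. The summed level of the list was 3742 and 2172 CPM at 1 day, 1726 and 992 CPM at 3 days, and 214 to 390 CPM in the sham libraries. The 3-day MI libraries thus lay between the other groups. Ngp, a granule protein made by immature neutrophils, had 68.4 and 7.63 CPM at 1 day and 0.533 and 0.102 CPM at 3 days, so the groups did not overlap although the 1-day mice differed widely. Its log2 fold change was -7.01 ± 1.09 (SE; edgeR adjusted p = 0.000726). Cd177, a surface glycoprotein of neutrophils, went from 137 and 78.2 CPM to 5.49 and 1.74 CPM (log2 fold change -4.94, edgeR adjusted p = 5.06e-05). Retnlg and the iron-binding Lcn2 also fell, with log2 fold changes of -4.36 and -3.93. The alarmin S100a8, abundant in mature neutrophils, kept 282 and 139 CPM at 3 days against 497 and 220 CPM at 1 day, and the groups overlapped (log2 fold change -0.77, edgeR adjusted p = 0.201). The receptor Csf3r had 87.1 and 103 CPM at 1 day and 90.2 and 71.7 CPM at 3 days. The C-type lectin receptors Clec4d and Clec4e, which monocytes carry too, rose by 1.06 and 1.75. The fall in 13 markers shrank to 8 without the 1-day library A and to 7 without the 3-day library B. The median was -0.80 and -0.79 in these cases, and -1.87 without the 3-day library A. The 2 rises were 1 without either 1-day library and 0 without the 3-day library A.

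Chemokines and inflammatory cytokines spread widely between the 3-day mice, and few passed the test. Of 26 tested, 3 fell, 2 rose and 21 were not called, with a median of -0.38. Il6, a cytokine of the acute phase, had 188 and 101 CPM at 1 day and 141 and 56.4 CPM at 3 days, with overlapping groups (log2 fold change -0.55 ± 0.41, edgeR adjusted p = 0.299). Both days stood far above the sham levels of Il6, which were 0.174 and 0.402 CPM at 1 day and 4.97 and 2.55 CPM at 3 days. The neutrophil attractant Cxcl1 had 305 and 117 CPM at 1 day and 163 and 61.7 CPM at 3 days. Il1b, which starts many of these responses, had 168 and 108 CPM at 1 day, but 457 and 54.1 CPM at 3 days. Its relative Il1a had 39.8 CPM in the 3-day library A and 0.579 CPM in B. Library A was thus the high library of its day for all of these genes, and the summed list had 2817 CPM in it against 1076 CPM in B. Cxcl3, another neutrophil attractant, had 209 and 87.8 CPM at 1 day and 56.8 and 7.59 CPM at 3 days (log2 fold change -2.22, edgeR adjusted p = 0.0142). The growth factor Csf2 went from 13.9 and 5.29 CPM to 0.164 and 0.102 CPM (log2 fold change -6.19, edgeR adjusted p = 5.06e-05). The epidermal growth factor family ligand Areg fell too, from 2.52 and 2.34 CPM to 1.23 and 0.238 CPM. Ccl12, a monocyte attractant, had 22.1 and 11.4 CPM at 1 day and 72.0 and 32.6 CPM at 3 days (log2 fold change 1.60, edgeR adjusted p = 0.0371). The platelet chemokine Ppbp rose by 1.39.

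These cytokine calls were fragile. Without the 3-day library A, 13 members of the list fell, and Il6 passed the test with a log2 fold change of -1.5 (edgeR adjusted p = 0.0249). Without the 1-day library B, 6 fell. Without the 1-day library A, or either library of either sham group, only 1 fell. Leaving out the 3-day library B gave 4 rises, while 1 was called without the 3-day library A, either 1-day MI library or either 1-day sham library. The median of the cytokine list turned positive, to 0.15 without the 1-day library A and 0.04 without the 3-day library B, and was -0.73 without the 1-day library B and -1.67 without the 3-day library A. Cxcl3 missed the threshold without the 1-day library A (edgeR adjusted p = 0.106) and without any 1 sham library (edgeR adjusted p = 0.0544 to 0.0610). Ccl12 missed it without the 3-day library A (edgeR adjusted p = 0.301), without either 1-day MI library (0.0789 and 0.215) and without either 1-day sham library (0.0514 and 0.0524).

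The promoters of Il6 and Cxcl1 are shown because they had the most matches to the 4 motifs searched among the cytokine genes ranked. Genes on a chromosome left out of the ranking could not be picked. The sequences are the 250 bases before a RefSeq transcript start (GRCm38.p6), 5′ to 3′ on the strand of the gene. Capitals mark letters that match a motif on either strand: TTTGAA or TTTAAA (the cell cycle homology region), CCAAT, TTTNNCGC (E2F-like) and, as kappa B-like, GGG and TTTCC or TTCC with any 2 bases between. Matches may overlap.
Il6, chr5:30012864-30013113, plus strand: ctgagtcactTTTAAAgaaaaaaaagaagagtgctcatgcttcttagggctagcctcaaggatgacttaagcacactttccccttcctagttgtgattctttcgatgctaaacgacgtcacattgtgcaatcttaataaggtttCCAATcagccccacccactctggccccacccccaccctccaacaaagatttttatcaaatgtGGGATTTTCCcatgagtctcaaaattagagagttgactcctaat
Cxcl1, chr5:90890995-90891244, plus strand: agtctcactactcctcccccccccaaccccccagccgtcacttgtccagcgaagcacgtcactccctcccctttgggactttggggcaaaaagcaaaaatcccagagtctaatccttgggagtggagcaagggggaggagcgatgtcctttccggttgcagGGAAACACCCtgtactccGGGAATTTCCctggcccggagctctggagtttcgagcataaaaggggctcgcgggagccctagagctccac
A kappa B-like match lies in 7 of 21 windows of 18 cytokine list genes (33.3%), and in 7.0% of all 32851 RefSeq windows of the same 300 bases. The factor NF-kappa B, which binds such sequences, is a known activator of both genes. A match describes the letters of the window and not occupancy.

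Macrophage genes rose in most members of 1 list and divided in others. Of 25 tested markers of lipid-associated and phagocytic macrophages 21 rose, 1 fell and 3 were not called, with a median of 1.97. Trem2, a lipid receptor of phagocytes, had 2.84 and 5.29 CPM at 1 day and 122 and 158 CPM at 3 days, a log2 fold change of 5.17 ± 0.46 (SE; edgeR adjusted p = 3.20e-05). Gpnmb, a membrane glycoprotein of phagocytes, had 3.25 and 6.64 CPM at 1 day and 123 and 215 CPM at 3 days (log2 fold change 5.16, edgeR adjusted p = 2.42e-05). Spp1, the matrix protein osteopontin, went from 117 and 189 CPM to 4803 and 3636 CPM (log2 fold change 4.79, edgeR adjusted p = 5.60e-05). In all 3 genes the lower 3-day library lay many-fold above the higher 1-day library. The lysosomal proteases Ctsb, Ctsl and Ctsk rose by 2.17, 1.60 and 2.66, and the lipid carrier Apoe by 3.30. The member that fell was Lpl, a lipase that cardiomyocytes also make, from 4490 and 3628 CPM to 346 and 341 CPM.

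Markers of monocytes that enter from blood divided by gene. The summed list was at 5542 and 4541 CPM at 1 day and 8897 and 6969 CPM at 3 days, against 648 to 921 CPM in sham. Of 19 tested 8 rose, 2 fell and 9 were not called, with a median of 0.76. Ms4a4c, a membrane protein of monocytes, had 2.60 and 2.83 CPM at 1 day and 43.4 and 52.0 CPM at 3 days (log2 fold change 4.14, edgeR adjusted p = 9.19e-06). Plac8 had 10.8 and 11.7 CPM at 1 day and 132 and 120 CPM at 3 days (log2 fold change 3.49, edgeR adjusted p = 3.29e-05). Ccr2, the receptor that draws monocytes from blood, had 75.2 and 113 CPM at 1 day and 649 and 490 CPM at 3 days (log2 fold change 2.60, edgeR adjusted p = 0.00198). Arg1, an arginine-degrading enzyme of wound macrophages, was at 270 and 331 CPM at 1 day, and rose to 998 and 485 CPM (log2 fold change 1.30, edgeR adjusted p = 0.0290). The falls of Chil3, by 1.21, and of Ifitm6, by 1.52, were both lost without the 1-day library A, the 3-day library B or any 1 sham library. The median of this list was 0.29 without the 3-day library A and 0.31 with transcript-table reads.

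Markers of the macrophages that live in the unharmed heart did not move as 1 block. Of 20 tested 12 rose, 2 fell and 6 were not called, with a median of 1.4. Ccl8, a chemokine, had 1.14 and 4.67 CPM at 1 day and 42.8 and 67.6 CPM at 3 days (log2 fold change 4.40, edgeR adjusted p = 0.000370). Cx3cr1, a chemokine receptor, had 0.974 and 2.83 CPM at 1 day and 28.9 and 34.4 CPM at 3 days (log2 fold change 4.18, edgeR adjusted p = 0.000721). The complement subunits C1qa, C1qb and C1qc, which macrophages of many kinds make, rose by 3.35, 3.65 and 3.03. C1qa had 41.9 and 42.2 CPM at 1 day, below its sham levels of 146 and 165 CPM, and 352 and 503 CPM at 3 days. The hyaluronan receptor Lyve1 moved the other way, from 81.9 and 55.1 CPM to 14.2 and 10.4 CPM (log2 fold change -2.49, edgeR adjusted p = 0.000137). The scavenger receptor Cd163 fell by 1.22, and 1 of these 2 falls was left without the 3-day library B. Timd4, a phosphatidylserine receptor of long-lived resident macrophages, had 0.325 and 2.58 CPM at 1 day and 0.246 and 0.511 CPM at 3 days, and was not called. Of 20 tested clearance receptors and lysosomal genes 14 rose, 1 (the fatty acid receptor Cd36) fell and 5 were not called. These 14 rises became 9 without the 3-day library A and 7 without B, and the 1 fall became 3 without the 1-day library B.

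Genes of DNA replication rose together. All 30 tested S phase genes rose, with a median of 3.01 and a range from 1.78 for the flap endonuclease Fen1 to 4.63 for Uhrf1, a factor that copies DNA methylation. Uhrf1 had 1.22 and 2.95 CPM at 1 day and 45.4 and 50.7 CPM at 3 days (edgeR adjusted p = 9.96e-06). Gins2, a subunit of the replicative helicase, had 0.406 and 2.34 CPM at 1 day and 25.1 and 28.4 CPM at 3 days (log2 fold change 4.48, edgeR adjusted p = 9.98e-05). Mcm5, which belongs to the same helicase, had 6.73 and 11.4 CPM at 1 day and 94.5 and 112 CPM at 3 days (log2 fold change 3.55, edgeR adjusted p = 0.000104). In sham ventricle Mcm5 had 3.01 and 7.99 CPM at 1 day and 8.45 and 5.79 CPM at 3 days, so the 1-day MI library A lay within this range and B above it.

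Mitotic genes rose as well. All 32 tested members rose, with a median of 5.28, a lowest value of 1.63 for the centromeric histone Cenpa and a highest of 7.15 for Top2a. Top2a, the topoisomerase that untangles replicated chromosomes, had 1.95 and 7.63 CPM at 1 day and 577 and 667 CPM at 3 days, 142-fold more (log2 fold change 7.15 ± 0.55 SE, edgeR adjusted p = 1.36e-05). In sham ventricle Top2a had 5.85 and 14.2 CPM at 1 day and 34.7 and 24.5 CPM at 3 days. The 1-day MI library A thus lay below every sham library, and B within their range. Cdk1, the kinase that drives entry into mitosis, had 0.649 and 3.32 CPM at 1 day and 185 and 184 CPM at 3 days, 105-fold more (log2 fold change 6.71 ± 0.46 SE, edgeR adjusted p = 8.75e-06). Its partner cyclin Ccnb1 went from 0.0811 and 1.72 CPM to 41.5 and 46.0 CPM (log2 fold change 5.86, edgeR adjusted p = 2.47e-05). The proliferation marker Mki67 went from 15.7 and 20.4 CPM to 534 and 567 CPM (log2 fold change 4.95, edgeR adjusted p = 7.95e-06). At 1 day library B was the higher of the pair for Uhrf1, Gins2, Mcm5, Top2a, Cdk1, Ccnb1 and Mki67. Without library A of that day the median of the mitotic list was 4.49, without B it was 6.76, and all members stayed called in both cases.

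The promoters of Top2a and Cdk1 are shown because they had the most matches to the same 4 motifs among the mitotic genes ranked. Genes on a chromosome left out of the ranking could not be picked. Matches are marked in capitals as above. Both genes lie on the minus strand, and each run is the 250 bases before a RefSeq transcript start (GRCm38.p6), written 5′ to 3′ on that strand.
Top2a, chr11:99024190-99024439, minus strand: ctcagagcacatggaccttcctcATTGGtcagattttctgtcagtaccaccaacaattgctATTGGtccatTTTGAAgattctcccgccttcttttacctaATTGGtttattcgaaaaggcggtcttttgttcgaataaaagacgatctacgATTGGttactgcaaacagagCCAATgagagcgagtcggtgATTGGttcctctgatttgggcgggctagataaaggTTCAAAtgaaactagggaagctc
Cdk1, chr10:69352913-69353162, minus strand: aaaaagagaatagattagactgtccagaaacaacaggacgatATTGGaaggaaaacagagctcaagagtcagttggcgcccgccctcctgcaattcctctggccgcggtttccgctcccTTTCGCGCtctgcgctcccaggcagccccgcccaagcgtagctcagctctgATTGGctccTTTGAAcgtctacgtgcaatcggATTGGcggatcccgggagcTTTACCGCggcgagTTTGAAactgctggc
The window of Top2a holds 6 CCAAT matches in either orientation and 2 cell cycle homology region matches, and that of Cdk1 holds 3 and 2, with 2 E2F-like matches. In genes of mitosis such elements are known as binding sites of NF-Y and of the DREAM and MuvB complexes. Over the 29 windows of 27 mitotic genes, 25 (86.2%) hold the cell cycle homology region letters and 22 (75.9%) a CCAAT. The shares are 27.6% and 37.4% over all 32851 windows of 300 bases, and 20.0% and 37.1% over the windows of tested genes. In windows of 150 bases before the start, 41.4% of the mitotic windows held the cell cycle homology region letters, against 14.7% of all windows and 9.65% of those of tested genes. An E2F-like match lies in 1 of the 29 windows (3.45%) and in 5.17% of all windows. No occupancy was measured here.

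Histone genes that are transcribed in S phase rose too. All 24 tested members rose, and 1 of the 25, Hist2h3c2, did not pass the low-count filter. The median was 5.53, above the 5.28 of the mitotic list, but it was 5.19 against 6.76 without the 1-day library B and 5.12 against 5.14 with transcript-table reads. The summed level of all 25 went from 341 and 259 CPM to 4131 and 4644 CPM, against 418 to 632 CPM in the sham libraries. Hist1h1a, a linker histone, had 1.78 and 2.09 CPM at 1 day and 358 and 430 CPM at 3 days (log2 fold change 7.68 ± 0.48 SE, edgeR adjusted p = 6.44e-06). The core histone gene Hist1h2af (chromosome 13, 23533875 to 23534378, mm10) had 0.325 and 0.123 CPM at 1 day and 93.8 and 97.01 CPM at 3 days (log2 fold change 8.57, edgeR adjusted p = 4.75e-06). Hist1h3g held 2 counts in both 1-day libraries together and 2338 at 3 days, a ratio of 445 after scaling, with a counting interval of 123 to 3675. The log2 fold changes of Hist1h3d, Hist1h2bm and Hist1h2ae were 8.09, 8.06 and 7.96. These 6 were the largest rises with no overlap between the days among genes whose MI libraries averaged 5 CPM or more, leaving out predicted-gene symbols such as 2810417H13Rik. Histone genes are near-identical copies, so the split of reads between them is uncertain. Their messages mostly lack a poly(A) tail, and the libraries were made by removing ribosomal RNA, which keeps such messages.

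Collagen and wound matrix genes rose in 26 of 30 tested members, and none fell. The median was 2.32, and the summed level went from 6289 and 5318 CPM at 1 day to 26315 and 26451 CPM at 3 days. Col1a1, the main chain of type I collagen (chromosome 11, 94936224 to 94953042, mm10), had 22.7 and 25.1 CPM at 1 day and 1202 and 1392 CPM at 3 days (log2 fold change 5.77 ± 0.29 SE, edgeR adjusted p = 4.75e-06). The 1-day values of Col1a1 lay below the sham means of 148 CPM at 1 day and 126 CPM at 3 days. The chains Col3a1 and Col1a2 lay below sham at 1 day too, and rose. Col3a1 had 210 and 280 CPM at 1 day and 5097 and 5578 CPM at 3 days, and Col1a2 went from 70.7 and 67.3 CPM to 1789 and 2115 CPM. Cthrc1, a secreted protein of activated fibroblasts, had 0.325 and 1.48 CPM at 1 day and 132 and 139 CPM at 3 days (log2 fold change 7.41 ± 0.38 SE, edgeR adjusted p = 4.75e-06). Postn, the matricellular protein periostin, had 192 and 254 CPM at 1 day and 4398 and 4056 CPM at 3 days (log2 fold change 4.25 ± 0.25 SE, edgeR adjusted p = 4.90e-06). Fn1, the wound matrix protein fibronectin with 74.4 and 104 CPM in 1-day sham ventricle, had 352 and 565 CPM at 1 day and 1986 and 1795 CPM at 3 days (log2 fold change 2.04, edgeR adjusted p = 0.000455). The 4 members not called were Eln, Thbs1, Dcn and Fmod, and 1 member fell without the 1-day library B.

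Enzymes that modify and cross-link collagen rose in 14 of 17 tested members, with none falling and a median of 1.63. P4ha3, a prolyl hydroxylase subunit, had 0.325 and 1.60 CPM at 1 day and 14.8 and 18.0 CPM at 3 days (log2 fold change 4.28, edgeR adjusted p = 2.84e-05). The lysyl oxidase Loxl3 had 6.98 and 11.7 CPM at 1 day and 134 and 169 CPM at 3 days (log2 fold change 4.06, edgeR adjusted p = 8.05e-06). Lox, the best known member, was at 111 and 85.6 CPM at 1 day and 726 and 649 CPM at 3 days (log2 fold change 2.81, edgeR adjusted p = 8.01e-06). P4ha2, Plod3 and Loxl4 were not called.

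Markers of activated fibroblasts and myofibroblasts rose in 14 of 22 tested members, fell in 2 and were not called in 6, with a median of 1.61. Besides Postn and Cthrc1, the contractile gene Tagln had 36.8 and 43.2 CPM at 1 day and 370 and 374 CPM at 3 days (log2 fold change 3.22, edgeR adjusted p = 4.75e-06). Acta2, smooth muscle actin, had 127 and 192 CPM at 1 day and 380 and 428 CPM at 3 days (log2 fold change 1.34, edgeR adjusted p = 0.00139). The falls were Tgfb2 (log2 fold change -0.74) and skeletal actin Acta1 (-2.47), and 1 of these was left without the 3-day library A. The ligand Tgfb1 had 29.5 and 21.2 CPM at 1 day and 21.7 and 18.3 CPM at 3 days and was not called. Markers of resting fibroblasts divided, with 4 of 18 tested rising, 8 falling and 6 not called, and 7 rose without either 3-day sham library. Scara5, a scavenger receptor, had 15.0 and 9.59 CPM at 1 day and 1.02 and 0.919 CPM at 3 days (log2 fold change -3.69, edgeR adjusted p = 0.000471). The lineage markers Pdgfra and Tcf21 were not called, with Pdgfra at 174 and 217 CPM at 1 day and 265 and 266 CPM at 3 days.

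**Figure D3:**
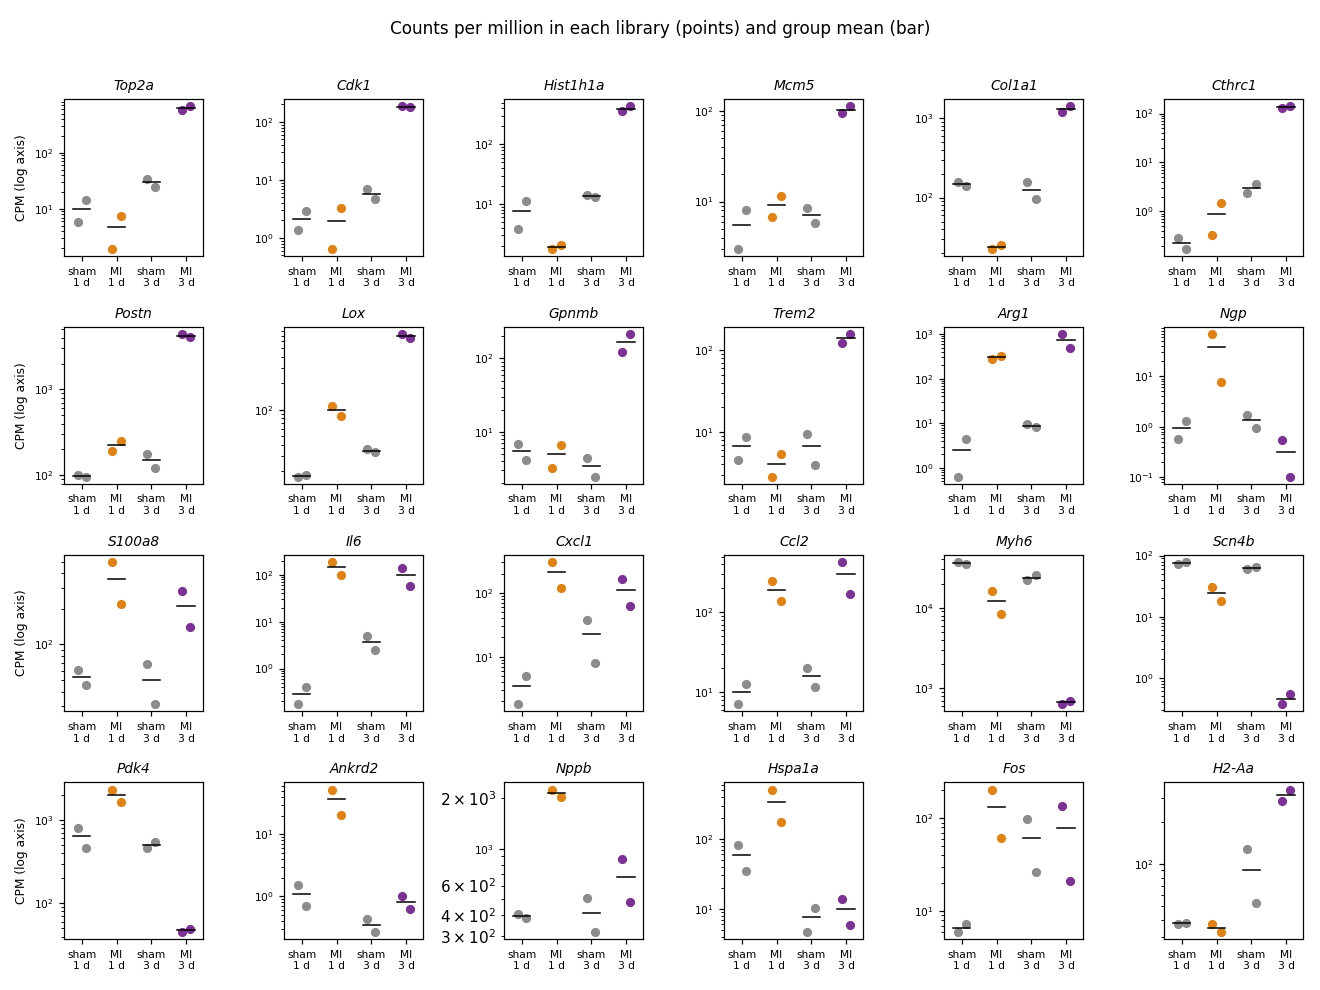
CPM of 24 genes in each library (points, A left and B right) with the group mean (bar), on a separate log axis for each gene. The MI libraries of 3 days lie apart from those of 1 day for most genes shown, while S100a8, Il6, Cxcl1, Ccl2 and Fos overlap between the days.

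Sarcomere genes all fell. The 26 tested members had a median log2 fold change of -3.06 and a range from -1.5 for the Z-disc protein gene Csrp3 to -5.81 for Myl7. Their summed level went from 115187 and 121389 CPM at 1 day to 10956 and 10839 CPM at 3 days, against 127081 to 206774 CPM in sham. This sum thus stood just below the lowest sham library at 1 day, and far below it at 3 days. Ttn made up a large part of the sum, and its 1-day values lay within its sham range of 48137 to 105174 CPM. The median of the members, as log2(CPM + 1), was 9.95 and 9.92 at 1 day and 10.44 to 11.01 in sham. Myh6 had 16222 and 8302 CPM at 1 day, against 22316 to 37278 CPM in sham. Myh6, the fast cardiac myosin heavy chain (chromosome 14, 54941921 to 54968017, mm10), had a log2 fold change of -4.21 ± 0.32 (SE; edgeR adjusted p = 1.34e-05), which is 18.5-fold less. Myh7, the slow form, had 299 and 391 CPM at 1 day and 69.5 and 37.2 CPM at 3 days (log2 fold change -2.69, edgeR adjusted p = 9.39e-05). Titin, the molecular spring encoded by Ttn, had 55779 and 77923 CPM at 1 day and 4549 and 4170 CPM at 3 days (log2 fold change -3.94, edgeR adjusted p = 4.95e-05).

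The 1-day level of Myl7 came from 1 of the mice. Myl7, the atrial regulatory light chain, had 0.162 CPM in the 1-day library A and 32.6 CPM in B, against 0.287 and 0.238 CPM at 3 days. The atrial light chain Myl4 had 2.60 and 61.4 CPM at 1 day and 2.34 and 2.28 CPM at 3 days, and sarcolipin, Sln, was listed at 0 in A and at 6.77 CPM in B. In sham ventricle Myl7 had 30.0 and 24.5 CPM at 1 day and 1.497 and 1.38 CPM at 3 days. These 3 atrial genes thus differed between the 1-day MI libraries, and Myl7 differed between the days in sham too. Their part in the other results was not tested.

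Calcium handling and ion channel genes fell in 26 of 28 tested members, and none rose. Among these, the fall of Sln rests on the 1-day library B alone. The median was -2.57. Scn4b, a sodium channel beta subunit, had 30.1 and 18.3 CPM at 1 day and 0.369 and 0.545 CPM at 3 days (log2 fold change -5.71 ± 0.37 SE, edgeR adjusted p = 7.42e-06). Hrc, a calcium-binding protein of the sarcoplasmic reticulum, had 583 and 430 CPM at 1 day and 20.5 and 17.7 CPM at 3 days (log2 fold change -4.73, edgeR adjusted p = 4.75e-06). Atp2a2, the calcium pump, went from 9365 and 5246 CPM to 709 and 759 CPM (log2 fold change -3.31, edgeR adjusted p = 2.10e-05). Gja1, the main ventricular gap junction protein, and the potassium channel gene Kcnj2 had the smallest called falls, 0.93 and 0.91 on the log2 scale. Kcna5 and the connexin Gja5 were not called.

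Genes of energy metabolism fell too. Of 38 tested genes of the citric acid cycle and fatty acid oxidation 37 fell, with a median of -2.52, and Dld, a dehydrogenase subunit, was not called. Pdk4, the kinase that shuts pyruvate dehydrogenase, had 2309 and 1624 CPM at 1 day, above its sham means of 635 and 501 CPM, and 45.5 and 49.5 CPM at 3 days. Its log2 fold change was -5.37 ± 0.33 (SE; edgeR adjusted p = 6.24e-06). Ucp3, a mitochondrial carrier, had 74.6 and 35.1 CPM at 1 day and 0.902 and 1.87 CPM at 3 days (log2 fold change -5.28, edgeR adjusted p = 3.16e-05). The nuclear receptor Ppara, which switches on fatty acid genes, went from 81.8 and 38.0 CPM to 4.55 and 5.58 CPM (log2 fold change -3.57, edgeR adjusted p = 0.000109).

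Nuclear genes of the respiratory chain fell in 44 of 47 tested members, with a median of -1.51. The largest falls were the muscle forms of cytochrome oxidase subunits. Cox6a2 had 949.5 and 763 CPM at 1 day and 59.8 and 57.8 CPM at 3 days (log2 fold change -3.86, edgeR adjusted p = 4.75e-06). Cox7a1 had 459 and 381 CPM at 1 day and 42.5 and 43.2 CPM at 3 days (log2 fold change -3.29, edgeR adjusted p = 4.75e-06). Ndufa2, Ndufb3 and Ndufs4, of complex I, were not called. RNA encoded by the mitochondrial genome made up 28.7% and 43.3% of the reads of the transcript tables in the 1-day MI libraries, 6.51% and 4.19% at 3 days, and 13.9% to 16.6% in sham.

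**Figure D4:**
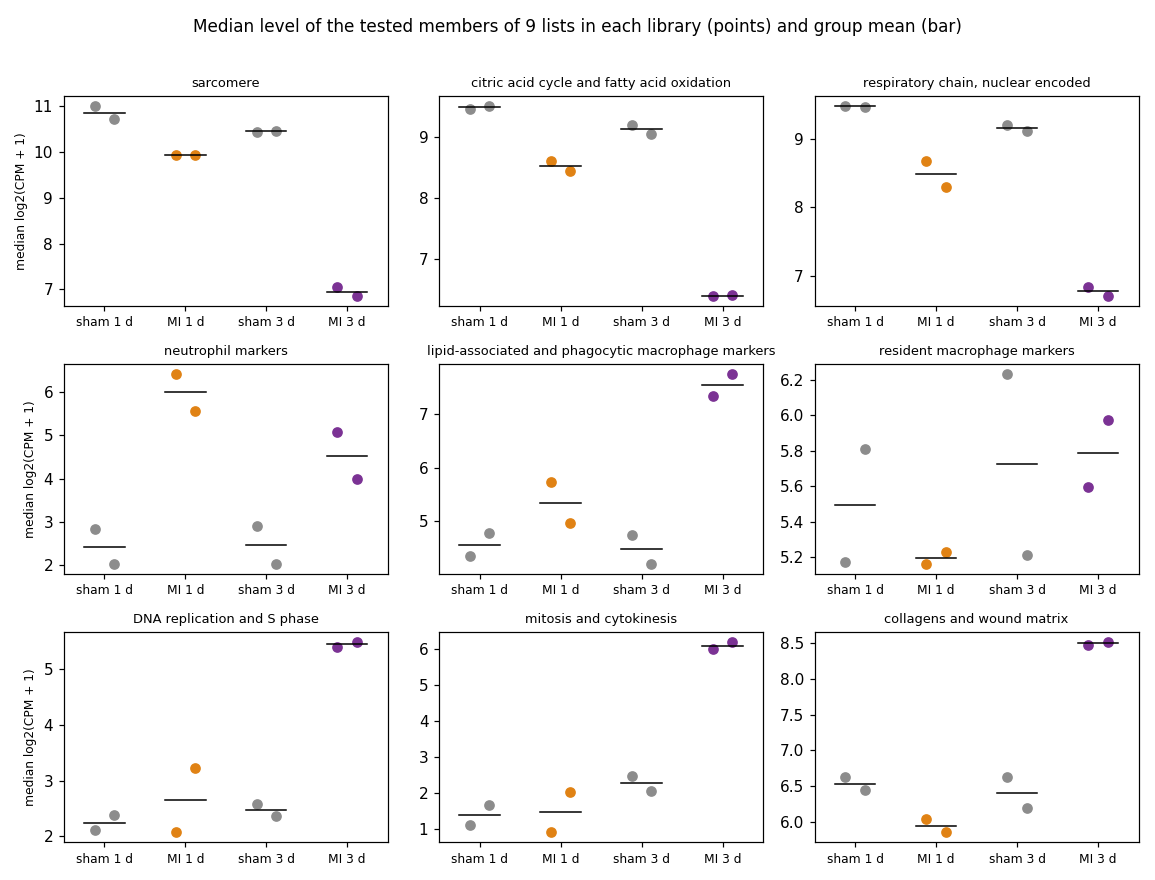
Median log2(CPM + 1) over the tested members of 9 lists in each library (points) with the group mean (bar), each panel on its own axis. The sarcomere and fuel lists step down from sham to 1 day and again to 3 days of MI, and the division and matrix lists stand high only in the 3-day MI libraries among these 4 groups.

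Glycolysis and hypoxia genes showed no general rise. Of 29 tested 18 fell, 2 rose and 9 were not called, with a median of -1.25. Ldhb, the heart form of lactate dehydrogenase, had 544 and 380 CPM at 1 day and 45.6 and 44.6 CPM at 3 days (log2 fold change -3.36, edgeR adjusted p = 6.44e-06). The muscle phosphofructokinase Pfkm went from 565 and 338 CPM to 42.1 and 49.1 CPM (log2 fold change -3.31, edgeR adjusted p = 1.35e-05). Ldha, Pkm, Pgk1, Pgam1 and Tpi1, the forms that most tissues use, were not called. The falls were not confined to muscle forms, and also took in Slc2a1, Hk1, Gpi1, Pfkp, Aldoa and Slc16a1. The vessel growth factor Vegfa had 339 and 170 CPM at 1 day and 103 and 46.6 CPM at 3 days (log2 fold change -1.77, edgeR adjusted p = 0.00666). The rises were the leukocyte hexokinase Hk3 and the heme oxygenase Hmox1, of which 1 was left without the 1-day library B or the 3-day library B. Eno1 did not pass the low-count filter, and Gapdh, which has many near-identical copies in the genome, had under 20 CPM in every library, so both are uncertain.

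Cardiac stress and fetal genes fell in 17 of 22 tested members, 1 rose and 4 were not called, with a median of -2.26. Nppb, a natriuretic peptide released by stretched muscle, had 2261 and 2027 CPM at 1 day and 866 and 480 CPM at 3 days (log2 fold change -1.67 ± 0.30 SE, edgeR adjusted p = 0.00158), and its sham means were 394 and 412 CPM. Nppa, its relative, did not follow, with 372 and 580 CPM at 1 day and 495 and 515 CPM at 3 days, and the groups overlapped (log2 fold change 0.09 ± 0.23 SE, edgeR adjusted p = 0.778). Ankrd2, a stretch-responsive titin-binding protein, had 52.6 and 20.5 CPM at 1 day and 1.02 and 0.613 CPM at 3 days (log2 fold change -5.52, edgeR adjusted p = 4.54e-05). The inducible heat shock protein Hspa1a had 512 and 177 CPM at 1 day and 13.9 and 5.86 CPM at 3 days (log2 fold change -5.15, edgeR adjusted p = 0.000278). Ankrd1 went from 7576 and 9002 CPM to 1218 and 943 CPM (log2 fold change -2.94, edgeR adjusted p = 1.24e-05). The only rise was Timp1, an inhibitor of matrix proteases, from 137 and 265 CPM to 1089 and 927 CPM, and 2 members rose without either 3-day sham library.

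Immediate early genes, which respond within minutes of a stimulus, fell in 7 of 28 tested members, a share close to the 22.0% of all genes, and none rose. Fosl1 had 12.5 and 5.41 CPM at 1 day and 2.17 and 0.783 CPM at 3 days (log2 fold change -2.70, edgeR adjusted p = 0.000504). Atf3, a stress-induced transcription factor, had 183 and 117 CPM at 1 day and 42.2 and 27.6 CPM at 3 days (log2 fold change -2.11, edgeR adjusted p = 0.00127). Fos had 204 and 60.9 CPM at 1 day and 137 and 21.0 CPM at 3 days, so the groups overlapped. Library A was the higher of its pair in the summed list at both days, with 4709 against 1861 CPM at 1 day and 2437 against 1126 CPM at 3 days. The number of falls was 2 without the 1-day library A or the 3-day library B, and 13 without the 1-day library B or the 3-day library A.

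Interferon-stimulated genes rose in 15 of 32 tested members, none fell, and the median was 0.64. Bst2, which tethers virions to the cell surface, had 16.3 and 13.9 CPM at 1 day and 81.0 and 97.3 CPM at 3 days (log2 fold change 2.55, edgeR adjusted p = 4.72e-05). Isg15, Oas2, Rsad2 and Irf1 were among the 17 not called, and 9 rises were left without the 3-day library B. Class II antigen presentation and dendritic cell genes rose in 10 of 18 tested members and 1, Ccl17, fell. H2-Aa, a class II alpha chain, had 37.2 and 32.6 CPM at 1 day and 285 and 342 CPM at 3 days (log2 fold change 3.16, edgeR adjusted p = 0.000143). The markers Flt3, Zbtb46, Xcr1 and Clec9a, which are closer to dendritic cells alone, were not called. Cd209a, Itgax and Irf8 of the same list were among the 10 rises. Without the 3-day library B, 5 class II list members rose and 0 fell, and without either 1-day MI library 2 fell.

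Lymphocyte and natural killer genes were low at both days. The 22 markers with listed counts, of which 19 were tested, summed to 10.9 and 32.8 CPM at 1 day. Their sums were 26.3 and 33.2 CPM at 3 days, and 7.24 to 14.5 CPM in sham. Of the 19 tested, Cd79a, Cd79b and Ms4a1 of B cells and Gzma of killer cells rose, none fell, and the median was 0.01. Cd79b, part of the B cell receptor, had 0.811 and 1.35 CPM at 1 day and 6.07 and 7.18 CPM at 3 days (log2 fold change 2.68, edgeR adjusted p = 0.00206). The median of this list had no stable sign, with -0.85 without the 1-day library A, 1.49 without the 1-day library B, -0.39 without the 3-day library B and -0.10 with DESeq2 size factors. The 4 rises were 2 without the 1-day library A or either 3-day library, and 4 members fell without the 1-day library A.

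Vascular genes divided. Of 25 tested endothelial markers 8 fell, 3 rose and 14 were not called, with a median of -0.47. The pan-endothelial Pecam1, Cdh5 and Tie1 were among those not called. The 8 falls were Kdr, Flt1, Cldn5, Aqp1, Rgcc, Car4, Gpihbp1 and Ly6c1. Pecam1 had 366 and 448 CPM at 1 day and 339 and 276 CPM at 3 days. Car4, an enzyme on the wall of heart capillaries, had 31.6 and 19.7 CPM at 1 day and 3.53 and 2.01 CPM at 3 days (log2 fold change -3.25, edgeR adjusted p = 0.000148). The rises were Aplnr, Esm1 and Plvap, genes known from sprouting or leaky vessels. Aplnr had 6.73 and 5.66 CPM at 1 day and 55.7 and 58.9 CPM at 3 days (log2 fold change 3.19, edgeR adjusted p = 0.000148). The endothelial median was -0.77 without the 3-day library A and -0.27 with library size alone. The endothelial falls became 4 without the 3-day library B, and the rises 1 without the 3-day library A. Of 15 smooth muscle and pericyte markers 8 fell, Myh11 and Rgs5 among them, 3 rose and 4 were not called, with a median of -0.64. The share that rose was close to the 23.4% of all genes. Des, an intermediate filament of all muscle, had 3124 and 1533 CPM at 1 day and 404 and 424 CPM at 3 days (log2 fold change -2.49, edgeR adjusted p = 0.000190). The falls in this list were 4 or 5 without either 3-day MI library or either 1-day sham library, and the rises 0 without the 1-day library A or either 3-day MI library. Rises in it were also 0 with DESeq2 or the 4 MI libraries alone, 1 with DESeq2 size factors or transcript-table reads, and 5 with library size alone.

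Of 12 epicardial and mesothelial markers only the transcription factor Tbx18 rose, from 10.3 and 8.49 CPM to 22.5 and 23.4 CPM (log2 fold change 1.28, edgeR adjusted p = 0.00152). The epicardial median, 0.37, turned to -0.27 without the 1-day library A and -0.72 without the 3-day library A, and was 1.05 without the 1-day library B and 0.84 without the 3-day library B. In this list 2 members rose without either 3-day sham library. Of 10 Schwann cell markers 3 rose and 3 fell, and Cnp, a myelin enzyme, had 7.79 and 6.27 CPM at 1 day and 25.1 and 31.2 CPM at 3 days (log2 fold change 1.98, edgeR adjusted p = 0.000299). The rises in this list were 1 without the 1-day library A or the 3-day library A. Its falls were 5 without the 1-day library A and 1 without the 1-day library B, either 3-day MI library or either 1-day sham library. Of 8 tested red cell and platelet markers 2 rose, and Pf4, a chemokine of platelets that some macrophages also make, had 45.8 and 49.6 CPM at 1 day and 350 and 398 CPM at 3 days (log2 fold change 2.97, edgeR adjusted p = 4.89e-05). The red cell enzyme Alas2 was not called, and the 4 globin genes listed did not pass the low-count filter.

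Of 5 tested adipocyte markers 3 fell, and 8 fell without the 1-day library A, when more members passed the filter. Lipe, a hormone-sensitive lipase, had 32.4 and 21.6 CPM at 1 day and 7.30 and 6.88 CPM at 3 days (log2 fold change -1.95, edgeR adjusted p = 0.000372). Of 7 tested skeletal muscle markers 4 fell. Ckm, the muscle creatine kinase, which the heart uses too, went from 1067 and 726 CPM to 41.2 and 44.4 CPM (log2 fold change -4.39, edgeR adjusted p = 4.75e-06). The fast myosins Myh1, Myh2 and Myh4 did not pass the low-count filter. The falls were 8 without the 1-day library A and 7 without either 3-day sham library, and 1 member rose without the 1-day library B.

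Secreted signals of repair changed in both directions, with 11 of 24 tested rising, 5 falling and 8 not called. The share that rose was above the 23.4% of all genes, and the share that fell was close to the 22.0% of all genes. Sfrp2, a secreted modulator of Wnt signalling, had 0.811 and 0.984 CPM at 1 day and 23.4 and 31.1 CPM at 3 days (log2 fold change 4.94, edgeR adjusted p = 3.07e-05). The heparin-binding growth factor Ptn had 1.05 and 1.97 CPM at 1 day and 38.8 and 39.7 CPM at 3 days (log2 fold change 4.77, edgeR adjusted p = 8.92e-06). Hgf, hepatocyte growth factor, had 4.22 and 6.52 CPM at 1 day and 59.3 and 65.0 CPM at 3 days (log2 fold change 3.57, edgeR adjusted p = 3.17e-05). In all 3 the days were far apart and the mice of a day close. The falls were Tgfb2, Vegfa, Vegfb, Fgf2 and Fstl3, and they numbered 2 without the 1-day library A or the 3-day library B, 3 without the 3-day library A and 8 without the 1-day library B.

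Under the same limit of 5 CPM, the largest falls with no overlap between the days were those of Ngp, Scd4, Scn4b, Arc, Ankrd2 and Scn4a. The atrial light chain Myl7 had a log2 fold change of -5.81, but its days overlapped. Scd4, a fatty acid desaturase known from the heart, had 38.0 and 98.7 CPM at 1 day and 0.820 and 0.681 CPM at 3 days (log2 fold change -6.49, edgeR adjusted p = 2.53e-05). Its sham means were 14.05 and 17.9 CPM, so the level lay above sham at 1 day and below it at 3 days. Arc, an immediate early gene best known from neurons, had 82.0 and 16.8 CPM at 1 day and 1.27 and 0.749 CPM at 3 days (log2 fold change -5.66, edgeR adjusted p = 0.000312). Scn4a, a sodium channel known mainly from skeletal muscle, had 17.0 and 12.2 CPM at 1 day and 0.492 and 0.204 CPM at 3 days (log2 fold change -5.43, edgeR adjusted p = 1.01e-05).

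The change from 1 to 3 days differed between MI and sham ventricle, by a test of the difference itself, in 3799 of 15508 genes (24.5%), with 2046 differences upward (13.2%) and 1753 downward (11.3%). The upward differences took in 26 of 30 S phase genes, 28 of 32 mitotic genes, 24 of 24 histone genes and 22 of 30 matrix genes. The downward ones took in 24 of 26 sarcomere genes, 22 of 28 channel genes, 36 of 47 respiratory genes and 37 of 38 citric acid cycle and fatty acid genes. Of the neutrophil markers 5 of 27 differed downward. Of the cytokines 3 of 26 did, a share close to the 11.3% of all genes. The cytokine list had a median change of 0.83 in sham against -0.38 in MI, and the immediate early genes 0.72 against -0.94. The last value was -0.02 without the 1-day library A and -1.73 without the 3-day library A. The mitotic list had a median of 1.06 in sham. Of the genes named by rule, Ankrd2, Cxcl3, Ccl12, Cx3cr1, Gins2, P4ha3, Hspa1a, Fosl1, Cd79b and Tbx18 did not pass this test. Hspa1a, for example, also had fewer reads in sham at 3 days, with means of 58.5 and 7.51 CPM (difference -2.19, edgeR adjusted p = 0.104). Without single libraries the count of differing genes was 1958 and 1582 (1-day sham A and B), 2103 (3-day sham B), and 1829 and 1575 (3-day MI A and B).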

How the data were processed

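Total RNA of the left ventricular free wall was sequenced paired-end after removal of ribosomal RNA, per the labels' protocols. The submitters' processing notes name the build mm10 and the tools TopHat2 2.0.14, Bowtie2 2.2.5, HTSeq, SAMtools 0.1.2, FastQC and DESeq2, with no roles. Neither annotation nor strand setting is given in the sources, so overlapping and antisense genes cannot be told apart. The authors deposited raw read counts per gene, 1 table a day, and read counts per transcript, per the file headers; the latter gave the mitochondrial share and an alternative.

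The tables were joined by symbol (24062 genes), and edgeR's filterByExpr left 15508. All 8 libraries were fitted by group, sharing 1 estimate of spread, with TMM factors and the robust quasi-likelihood test (edgeR 4.0.16, R 4.3.3; 2-sided, Benjamini-Hochberg over all genes, threshold 0.05), for 3 days against 1 day in MI, in sham, and for the difference. CPM uses TMM-scaled library sizes. The SE is the log2 fold change over the square root of F. DESeq2 1.42.0 and limma 3.58.1 were alternatives. Tested on simulated data for MI 3 days against 1 day (15096 genes), 4-fold changes were recovered in 89.8% (up) and 93.9% (down), and 2-fold ones in 8% and 26%, with 7 false calls. The simulation gave all genes 1 spread and changed 49 or 50 of the tested genes at each size and direction. Many more genes were called in the real data, so these rates may not hold there. Intervals of shares and ratios (exact Clopper-Pearson, 95%) and floors cover counting error only.

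Libraries are separate mice per the series text. The groups, lists and rules were chosen with earlier results of these data known. Genes were named by rule. Among called genes whose MI libraries averaged 5 CPM or more, with days not overlapping, these were the 6 largest rises and falls, the 2 largest changes of each of 16 main lists and the largest of each of 15 others, plus Nppa, Nppb, Myh6, Myh7, Il6, Postn, Col1a1 and Cdk1. Of these 58, 1 is not reported here. All matched RefSeq (GRCm38.p6), which gave coordinates and promoters. Of 707 list genes 699 were in the tables and 679 tested.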

Additional observations from a re-analysis of the deposited data

Results flagged for a closer look

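For 47 genes named by rule, the log2 change from 1 to 3 days in MI ventricle differed from that in sham ventricle, by edgeR's test of the difference itself (adjusted p under 0.05 over all genes tested). Each value here is the MI change minus the sham change on the log2 scale. Among histone genes, the difference was 8.18 for Hist1h3g, 8.34 for Hist1h2af, 6.79 for Hist1h3d, 8.04 for Hist1h2bm, 7.72 for Hist1h2ae and 6.85 for Hist1h1a. Among replication and division genes, the difference was 4.64 for Uhrf1, 5.59 for Top2a and 5.31 for Cdk1. Among matrix, fibroblast and Wnt modulator genes, the difference was 3.73 for Cthrc1, 6.00 for Col1a1, 4.10 for Loxl3, 3.63 for Postn, -3.94 for Scara5 and 4.36 for Sfrp2. Among macrophage, monocyte, platelet and antigen presentation genes, the difference was 5.15 for Trem2, 5.81 for Gpnmb, 3.77 for Ccl8, 2.62 for Ms4a4c, 1.92 for Plac8, 2.67 for Pf4, 1.90 for H2-Aa and 2.93 for Bst2. Among neutrophil and cytokine genes, the difference was -7.53 for Ngp, -4.11 for Cd177 and -4.23 for Il6. Among contractile, channel and calcium genes, the difference was -3.61 for Myh6, -2.76 for Myh7, -3.88 for Ttn, -4.51 for Hrc, -5.44 for Scn4b, -4.70 for Scn4a, -2.03 for Des and -3.91 for Ckm. Among fuel and respiratory genes, the difference was -5.03 for Pdk4, -5.49 for Ucp3, -3.69 for Cox6a2, -3.19 for Cox7a1, -3.07 for Ldhb, -6.83 for Scd4 and -1.37 for Lipe. Among stress and early response genes, the difference was 1.27 for Nppa, -1.74 for Nppb, -2.13 for Atf3 and -4.77 for Arc. Among capillary and glial genes, the difference was -3.10 for Car4 and 2.30 for Cnp. Nppa and Il6 are set apart by their MI values, which did not pass the test between the days: Nppa was lower in sham at 3 days (means of 376 and 165 CPM), and Il6 was higher there (0.288 and 3.76 CPM).

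Outside the gene counts, the share of transcript-table reads from mitochondrially encoded RNA in the 1-day MI libraries stood above every sham library. It was 28.7% in library A (95% Clopper-Pearson interval 28.67% to 28.73%) and 43.3% in library B (43.30% to 43.37%), against 13.9% to 16.6% in sham. The intervals cover counting error only, and both lie well outside the spread of the sham mice.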

How the results depend on the processing

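No paired analysis was possible because the count columns carry no replicate numbers. Leaving out each library in turn gave 4037 to 9428 called genes in MI ventricle between the days, of which 2062 to 3870 rose and 1975 to 5821 fell. The same gave 0 to 2 genes in sham ventricle, where DESeq2 called 44, and 1575 to 5297 genes that differed between MI and sham, 698 to 2600 upward and 667 to 2951 downward. Reads of the transcript tables gave 6676 calls in MI, of which 42% rose, and the 4 MI libraries alone gave 5472. Of the 58 genes named by rule under 15 alternatives, 856 of 870 values kept direction and call, and none changed sign. The 14 others were Cxcl3 in 7 alternatives and Ccl12 in 6, which missed the threshold (edgeR adjusted p from 0.0514 to 0.301), and Il6 in 1, which passed it. Counts of called list members stayed within 1.5 times in 419 of 496 values with a library left out and in 404 of 434 under other settings. In windows of 150 bases before the start, 41.4% of the mitotic windows held the cell cycle homology region letters, against 14.7% of all windows and 9.65% of those of tested genes. Depth sets a floor of 3 counts at 0.243 and 0.369 CPM in the 1-day MI libraries. The cause of the dependence on single libraries was not tested.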

Other observations

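Shares of called genes were also counted by RefSeq class, with no test between the classes and no matching on level. Of 668 tested long noncoding RNA genes 6.74% rose and 17.8% fell, while of 13663 protein-coding genes 23.9% rose and 22.7% fell. Of 73 microRNA genes 6.85% rose and 8.22% fell, and of 114 transcribed pseudogenes 16.7% rose and 15.8% fell. Small nucleolar RNA genes, which guide chemical marks onto ribosomal RNA and mostly lie in introns of host genes, rose in 23 of 80 and fell in 1. Of 7 tested guide RNA genes of Cajal bodies 4 rose and none fell. The RNA subunits of telomerase, RNase MRP and RNase P were each tested as 1 gene, and each rose, by 2.58, 2.0 and 1.55 on the log2 scale. Reads of a host gene and of a small RNA inside its introns may be counted for either, so these small RNA values are uncertain. The part of the stray low-level reads in the 1-day library B in these shares was not tested.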
